A study of Mus musculus with 62 samples.

Results

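The genes described here are those of the brain-derived neurotrophic factor (BDNF) system: Bdnf and Ntf3, which encode the neurotrophins BDNF and NT-3, Ntrk2 and Ntrk3, which encode their receptors TrkB and TrkC, Sort1, which encodes the sorting receptor sortilin, and Vgf, which encodes a secreted neuropeptide precursor. They were chosen by symbol, and 5 of the 6 symbols were found among the 11121 genes counted. Ntf3 was not analysed here. The choice was made with earlier results of these libraries known, and the stress and region contrasts are therefore given as a description.

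BDNF is released by neurons in an activity-dependent way and binds TrkB, a receptor tyrosine kinase that signals through the Ras/MAP kinase, PI3 kinase and phospholipase C gamma pathways. NT-3 binds mainly TrkC. Sortilin binds the BDNF precursor and takes part in sending it to the regulated secretory pathway, and Vgf transcription rises when BDNF acts on neurons. In rodents, much of the BDNF protein in the striatum, of which the nucleus accumbens (NAc) is part, is made in cortical neurons and carried there along their axons.

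The libraries came from wild-type male C57BL/6j mice aged 15 weeks. mCRS mice had gone through multimodal chronic restraint stress, in which they were restrained in a tube every day under conditions that varied. CTR mice did not go through this stress. Mice of both groups also took social interaction, forced swim and saccharin preference tests. Tissue was taken some days after the restraint had ended. No group carried an engineered allele or received a drug. The prefrontal cortex (PFC) gave 15 CTR and 15 mCRS libraries and the NAc 16 CTR and 16 mCRS libraries, after the authors had removed PFC samples of poor sequencing quality. RNA was sequenced by BRB-seq, in which barcoded oligo-dT primers tag the 3′ end of each transcript before samples are pooled. Levels are given as CPM, counts scaled to a common library size after TMM normalization for library composition, and levels of different genes are not set against each other. Bulk RNA cannot tell fewer expressing cells from less RNA per cell.

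Library totals ran from 945286 to 4857359 counts, and between 69.7% and 97.4% of the genes counted were detected in a library. Cortical excitatory markers (10 of 10 counted, summed CPM) lay between 974 and 2079 in PFC and between 58.9 and 742 in NAc libraries. Striatal neuron markers (10 of 10 counted) lay between 360 and 1482 in the PFC and between 3156 and 9050 in 31 of the 32 NAc libraries. NAc CTR 7 stood apart, with 754 CPM of striatal markers and the highest hypothalamic and septal sum, 2758 CPM (6 of 10 markers counted). NAc mCRS 10 held 24020 CPM of choroid plexus markers (3 of 6 counted). Fits of Bdnf and Ntrk2 are also given below without NAc CTR 7. Relations to markers and between members were not repeated with NAc CTR 7 or NAc mCRS 10 left out by name.

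On the mouse genome build GRCm38, Bdnf (ENSMUSG00000048482) lies on chromosome 2 from 109674700 to 109727007, on the plus strand. Its 11 annotated coding transcripts begin at 9 different starts and share 1 annotated 3′ end, so a count at the 3′ end sums over all of them and does not tell the promoters apart. RefSeq promoter windows (GRCm38.p6, 250 bases before to 50 after a start) were matched by symbol for 3 of the 6 genes, namely 7 for Bdnf, 2 for Ntf3 and 1 for Ntrk2. Ntrk3, Sort1 and Vgf had no match. The motifs searched on both strands were the cyclic AMP response element TGACGTCA, its shorter form TGACG, which every full match also contains, and the E-box CACGTG. Of the 32851 promoters in the set, 1.79%, 20.8% and 7.15% held them. The windows of 2 Bdnf starts are printed because they show the spread of starts that are summed in each Bdnf count, the first at the 5′ end of the gene and the second being the window, of 7, with a TGACG match. The match is on the minus strand and is in capitals as CGTCA.

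Bdnf, chr2:109674450-109674749 (+), GRCm38.p6: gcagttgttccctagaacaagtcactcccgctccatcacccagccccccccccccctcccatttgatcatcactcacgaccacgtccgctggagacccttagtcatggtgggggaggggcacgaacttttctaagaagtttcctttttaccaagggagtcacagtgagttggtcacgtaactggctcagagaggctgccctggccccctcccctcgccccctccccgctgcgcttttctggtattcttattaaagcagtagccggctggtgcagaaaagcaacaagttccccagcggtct

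Bdnf, chr2:109692186-109692485 (+), GRCm38.p6: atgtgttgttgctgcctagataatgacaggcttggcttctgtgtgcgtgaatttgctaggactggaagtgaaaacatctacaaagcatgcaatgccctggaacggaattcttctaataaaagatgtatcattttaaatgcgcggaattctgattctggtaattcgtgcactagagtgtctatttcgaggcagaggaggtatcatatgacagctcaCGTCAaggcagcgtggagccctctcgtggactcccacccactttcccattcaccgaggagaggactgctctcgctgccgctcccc

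No full TGACGTCA and no CACGTG was found in the Bdnf windows or in that of Ntrk2, whereas 1 of the 2 Ntf3 windows, chr6:126166695-126166994 on the minus strand, held CACGTG.

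Bdnf was the gene of the group that separated the regions. In PFC CTR libraries its level ran from 21.5 to 273 CPM with a median of 63.6, and in NAc CTR libraries from 0 to 52.1 with a median of 7.49. Of the 15 PFC CTR libraries, 10 lay above the highest NAc CTR library, and 11 of the 16 NAc CTR libraries lay below the lowest PFC CTR library. The mean was 103 CPM ± 85.2 (SD, n = 15) in the PFC and 17.0 ± 19.3 (SD, n = 16) in the NAc. The fitted level in CTR mice was 6.05-fold higher in the PFC, a log2 fold change of 2.60 with a standard error of 0.68 and a 95% interval from 1.24 to 3.95 (edgeR's quasi-likelihood test, Benjamini-Hochberg adjusted p = 0.00770). Bdnf was the only member of 5 called at an adjusted p below 0.05 in this contrast, in which 5.44% of the 11025 genes tested were called and 3.56% were called higher in the PFC. The call held in each of the 62 fits that left out 1 library, with a log2 fold change between 2.44 and 2.81, the latter without NAc CTR 7. All 30 PFC libraries held Bdnf counts, with at least 25 each, and all lay above the median of the NAc libraries.

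Counts of Bdnf in the NAc were low. They came to 1467 over 32 libraries, against 15733 over the 30 PFC libraries. In NAc CTR libraries the median was 37 counts and 2 of 16 libraries held 0. In NAc mCRS libraries the median was 2.5 counts and 7 of 16 held 0. A count of 0 in these 9 libraries allows a level of up to 0.771 to 2.90 CPM (3 counts per library, counting error only). Relations of Bdnf to marker sums within the NAc did not pass the adjustment. Across the 32 libraries, with group means removed, log2 CPM of Bdnf had r = −0.42 with the summed striatal markers (rho = −0.50) and r = 0.43 with the hypothalamic and septal markers (rho = 0.48). Among 50 such relations of the 5 genes, permutation tests gave adjusted p = 0.0734 for r and 0.0737 for rho with the striatal sum, and 0.122 and 0.0737 with the hypothalamic and septal sum. Without the 2 libraries farthest from the median, r was −0.43 and 0.39. With cortical excitatory markers Bdnf had r = 0.07 in the NAc (rho = 0.09, adjusted p = 0.921 and 0.859, permutation tests; r = 0.03 without the 2 farthest libraries). The part of these markers in the Bdnf values was not tested further.

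**Figure D1:**
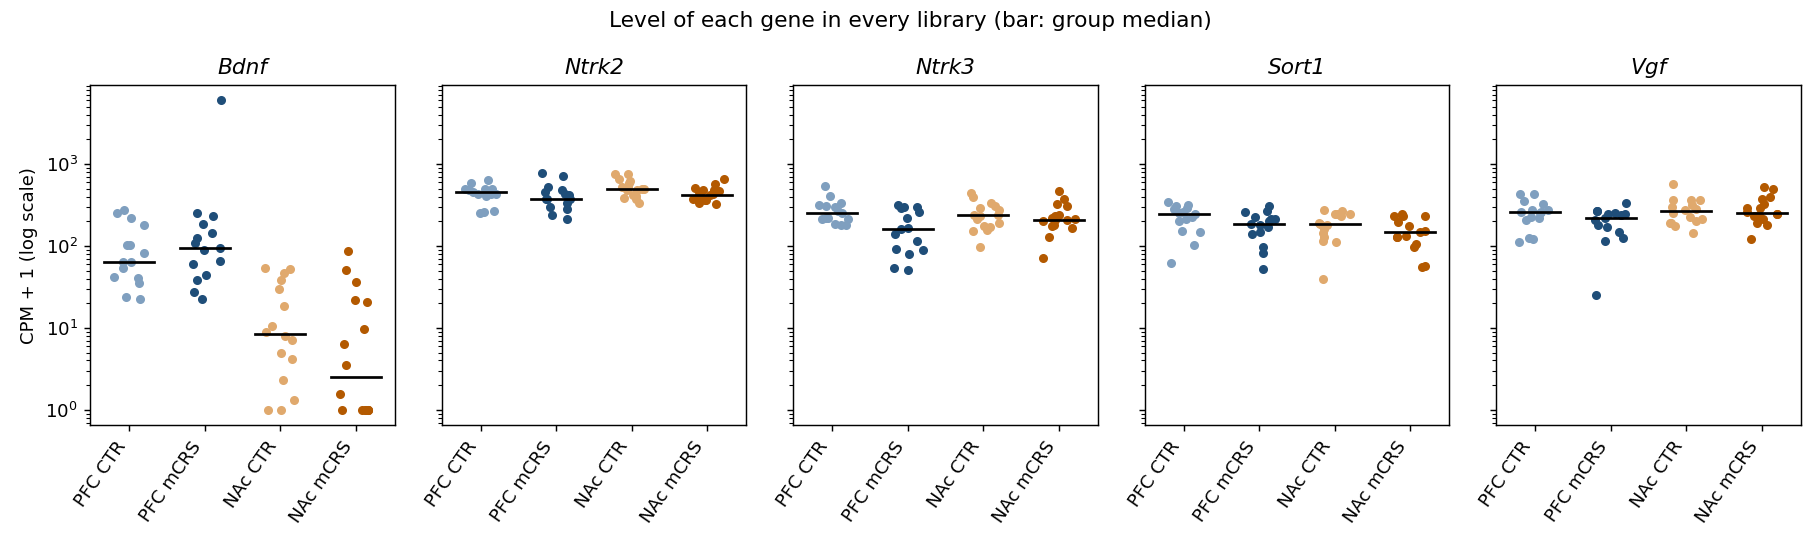
Level of each gene in all 62 libraries, as CPM + 1 on a log axis, with 1 point per library and a bar at the group median. Bdnf sits lower in the NAc than in the PFC, 9 NAc libraries are at 0, and 1 PFC mCRS library stands at 5979 CPM.

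The other 4 genes did not pass the test between regions. Ntrk2 had a mean of 437 CPM ± 110 (SD, n = 15) in PFC CTR and 517 ± 125 (SD, n = 16) in NAc CTR libraries, a log2 fold change of −0.24 with a 95% interval from −0.54 to 0.06 (edgeR, adjusted p = 0.565). Ntrk3 differed between the regions by 0.17 in log2, with an interval from −0.28 to 0.62 (adjusted p = 0.910). For Sort1 the difference was 0.30, with an interval from −0.16 to 0.75 (adjusted p = 0.712), and for Vgf it was −0.09, with an interval from −0.51 to 0.33 (adjusted p = 0.963). These intervals leave room for differences of up to 0.75 in log2.

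In mCRS mice, 6.49% of the 11025 genes were called between the regions, and of the 5 members again Bdnf was called. Bdnf was higher in the PFC by 5.09 in log2 ± 0.76 (SE; adjusted p = 2.28e-07). Without the PFC library mCRS 9, described below, this fell to 2.87 ± 0.68 (SE, adjusted p = 0.00228, edgeR). Of the 15 PFC mCRS libraries, 9 lay above the highest NAc mCRS library. Vgf was lower in the PFC of mCRS mice by 0.51 in log2, with an interval from −0.93 to −0.09, but did not pass the adjustment (p = 0.171, edgeR). The 2 region contrasts come from 1 fit that shares its estimate of the spread. Both treat PFC and NAc libraries as independent, although the regions were taken from the same mice, and their p-values and intervals leave this out.

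**Figure D2:**
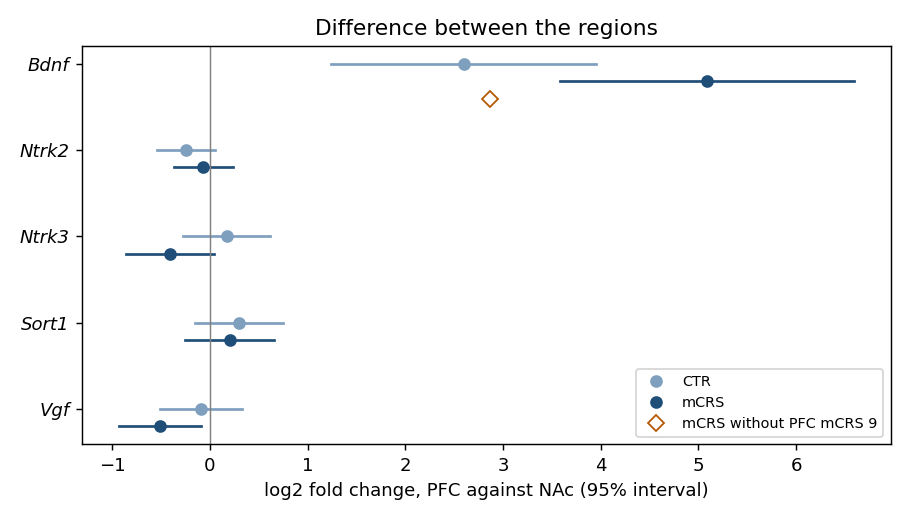
Log2 fold change of each gene between the PFC and the NAc in CTR and in mCRS mice, with 95% intervals from edgeR. The Bdnf intervals lie above 0 in both groups, and the open diamond gives the mCRS value of Bdnf, 2.87, when PFC mCRS 9 is left out.

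The contrast of mCRS with CTR asked how chronic stress changed these genes in each region. In the PFC, 0 of the 5 members were called at an adjusted p below 0.05 by edgeR, where 0% of the 8916 genes tested were called. At an unadjusted p below 0.05 there were 2 members against 3.5% of all genes tested, Bdnf with a higher level (2.12% of all genes) and Ntrk3 with a lower level (1.38%). DESeq2 called 0 members, against 0.045% of 11121 genes, and gave no adjusted p for 4 of the 5.

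The Bdnf value rested on 1 library. In PFC CTR libraries Bdnf ran from 21.5 to 273 CPM around a median of 63.6, and in PFC mCRS libraries from 21.5 to 5979 around a median of 93.5. The highest was mCRS 9, with 8879 counts and a level 21.9 times that of the next library of either group. The other 14 mCRS libraries lay within the CTR range, between 21.5 and 254 CPM. With all libraries the mean was 497 CPM ± 1518 (SD, n = 15) in mCRS against 103 ± 85.2 (SD, n = 15) in CTR mice, a 4.83-fold ratio. Without mCRS 9 it was 105 ± 74.0 (SD, n = 14), a 1.02-fold ratio. The fitted log2 fold change was 2.28 ± 0.57 (SE; adjusted p = 0.475, edgeR), larger than that of all but 0.191% of the genes tested, and it was 0.05 without this library. In the 29 fits that left out another PFC library it stayed between 2.2 and 2.46. Of the 15 mCRS libraries, 10 lay above the CTR median.

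**Figure D3:**
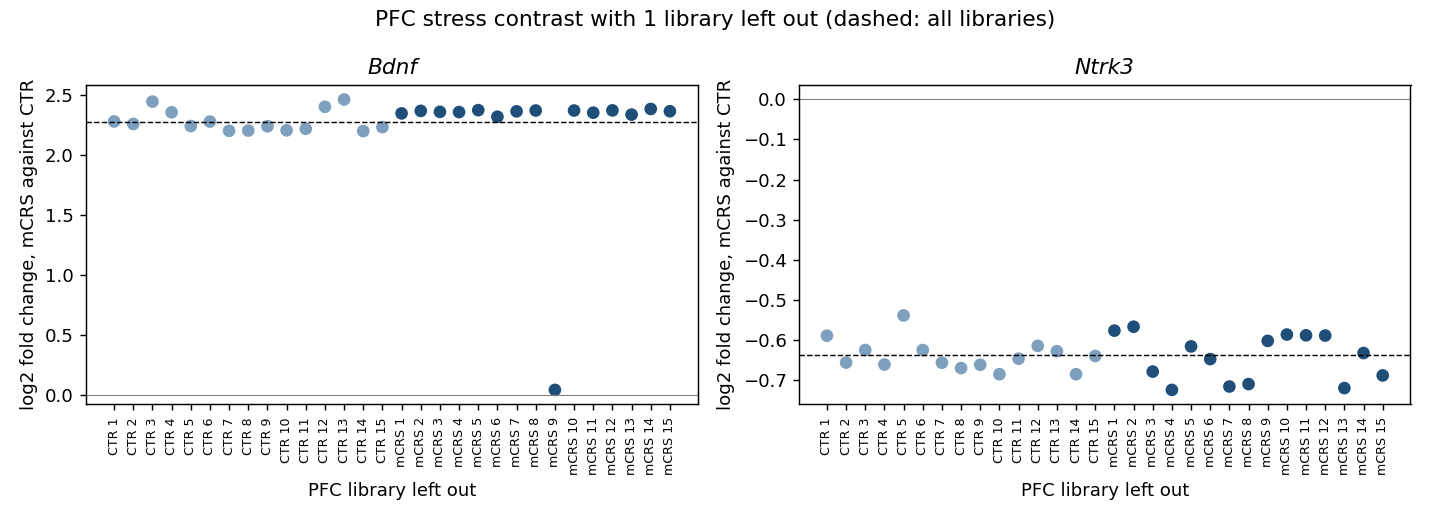
Log2 fold change of Bdnf and Ntrk3 between mCRS and CTR in the PFC when the library on the x axis is left out, with light points for CTR and dark points for mCRS libraries and a dashed line for all libraries. Bdnf drops to 0.05 only without mCRS 9, whereas Ntrk3 stays between −0.73 and −0.54.

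Library mCRS 9 held 56.4% of all Bdnf counts of the PFC and 75.6% of those of PFC mCRS mice. Of 843 genes with PFC totals within 1.5-fold of that of Bdnf, 2 had a larger share in their highest library, and the median share was 7.69%. The library itself had 1639280 counts and 80.7% of genes detected, inside the range of the others. Among 10936 genes with at least 200 PFC counts, Bdnf and Phykpl, with 170 counts, were the 2 that had over 50% of their counts in it, while other libraries held between 0 and 4 such genes. Phykpl was named after its value was seen. Of the 17 genes of neuronal activity and TrkB signalling counted, Vgf included, 0 had this library among their 5 highest and 3 were above the PFC median. The same shares over all genes were not computed for this library, and the part of neuronal activity in its Bdnf value was not tested. The 3 were Nr4a1, at 39.1 CPM against a PFC median of 19.4 and 7th of 30 libraries, Egr3 (91.6 against 88.7) and Scg2 (224.2 against 224.1). Arc, an immediate early gene of synaptic activity, was at 18.9 CPM against a PFC median of 53.3, and Vgf was at 169 CPM, 23rd of 30 libraries from the top. Ntrk2 was also highest in this library, at 769 CPM, but there the next library reached 711. The counts carry no molecular identifiers, so copies of 1 molecule made by PCR cannot be told apart from separate molecules.

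**Figure D4:**
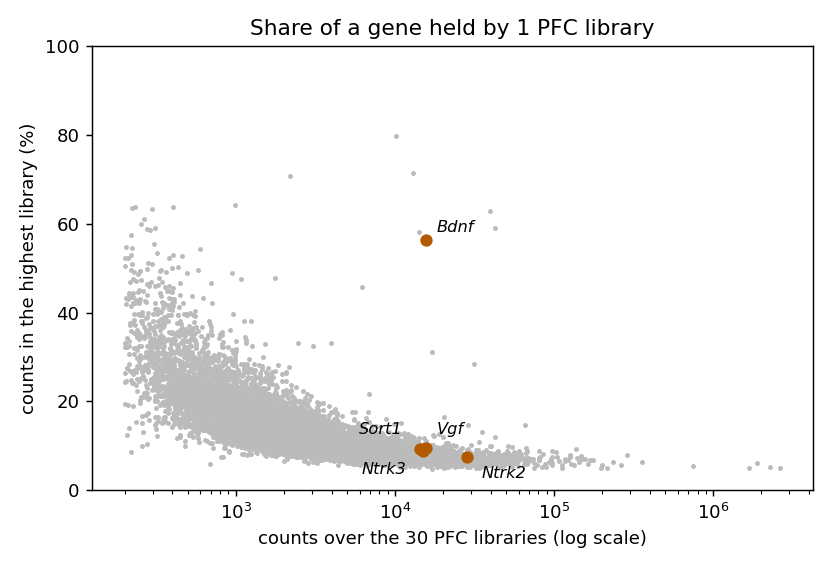
Share of a gene's PFC counts that lies in its highest library, against its total over the 30 PFC libraries, for genes with at least 200 counts. Bdnf, at 56.4%, stands above the bulk of genes with like totals, and Ntrk2, Ntrk3, Sort1 and Vgf lie between 7.52% and 9.41%.

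Ntrk3 had lower values in most PFC libraries of mCRS mice, and its difference did not rest on 1 library. It ran from 177 to 535 CPM around a median of 253 in CTR and from 49.6 to 319 around a median of 160 in mCRS libraries. Of the 15 mCRS libraries, 9 lay below the lowest CTR library, and 3 CTR libraries lay above the highest mCRS library. The mean of CTR mice was 274 CPM ± 97.8 and that of mCRS mice 174 ± 97.4 (SD, both n = 15), and without the highest library, CTR 5, the CTR mean was 255 ± 68.4 (SD, n = 14). The fitted log2 fold change was −0.64 ± 0.24 (SE, 95% interval from −1.13 to −0.15), but the adjusted p was 0.9997 over the 8916 genes (edgeR). The size of the difference was not rare, as 18.9% of all genes tested had a larger absolute log2 fold change. Most genes also varied more between libraries, as 88.8% had a larger fitted coefficient of variation than Ntrk3.

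Labels number the libraries of each group, and mean log2 CPM of Ntrk3 was lower in mCRS mice by −0.84 among libraries 1 to 8 and by −0.80 among those from 9 upwards. For Bdnf in the PFC these differences were 0.12 and 1.01, and the second holds mCRS 9. In the deposit PFC mCRS 8 stands with the higher numbers, and counted there the differences were −0.97 and −0.67 for Ntrk3 and 0.11 and 0.92 for Bdnf. The PFC mCRS libraries also had less of the cortical excitatory markers, with a median sum of 1555 against 1849 CPM in CTR libraries (ranges 974 to 1946 and 1445 to 2079), and a median of 84.1% against 86.3% of genes detected. Within groups Ntrk3 had r = 0.16 with the cortical markers (rho = 0.16; r = 0.08 without the 2 farthest libraries) and r = 0.04 with the share of genes detected (rho = 0.04; 0.02 without them). Adjusted p was 0.820 for r and 0.712 for rho with the markers and 0.921 and 0.935 with the share detected, from permutation tests. With the hypothalamic and septal markers Ntrk3 had r = 0.37 and rho = 0.37 (adjusted p = 0.479 and 0.391, permutation tests; r = 0.31 without the 2 farthest libraries). Astrocyte markers (9 of 9 counted) came to 3728 CPM ± 404 in CTR and 3372 ± 534 in mCRS libraries of the PFC (SD, n = 15 each), with ranges of 2906 to 4651 and 2549 to 4489. The part of these markers in the Ntrk3 difference was not tested. A fit that also held the detected share gave Ntrk3 a log2 fold change of −0.60.

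Sort1 in the PFC ran from 61.5 to 339 CPM in CTR and from 50.7 to 307 in mCRS libraries, with medians of 242 and 186, and the groups overlapped over most of their range. Its log2 fold change was −0.30 ± 0.23 (SE), and −0.25 without the highest library, CTR 9. Sort1 also followed the share of genes detected in PFC libraries, with r = 0.58 and rho = 0.59 (adjusted p = 0.0445 for both, permutation tests over 50 relations), and r = 0.57 without the 2 farthest libraries. A fit that also held that share gave a log2 fold change of −0.02, and the part of the share in the Sort1 values was not tested further.

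Vgf ran from 112 to 435 CPM in PFC CTR and from 24.1 to 336 in PFC mCRS libraries, with medians of 259 and 220. Its log2 fold change was −0.35 ± 0.23 (SE), and −0.28 without the highest library, CTR 13. Ntrk2 had medians of 451 and 376 CPM, with ranges of 251 to 634 in CTR and 210 to 769 in mCRS libraries. Its log2 fold change was −0.06 ± 0.17 (SE) with all libraries and −0.15 without mCRS 9, which is also its highest. The differences of mean log2 CPM of Ntrk2 had opposite signs in libraries 1 to 8, −0.35, and from 9 upwards, 0.16, but with mCRS 8 counted among the higher numbers they were −0.22 and 0.04. The adjusted p was 0.9997 for Ntrk2, Sort1 and Vgf (edgeR).

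In the NAc, 0 of the 5 members were called, against 0.00986% of the 10141 genes tested, and 0 had an unadjusted p below 0.05, against 2.04% of all genes (edgeR). DESeq2 called 0 members and 0% of all genes. Ntrk2 ran from 331 to 752 CPM in CTR and from 321 to 650 in mCRS libraries, with medians of 497 and 421, and 3 of the 16 mCRS libraries lay above the CTR median. The mean of CTR mice was 517 CPM ± 125 and that of mCRS mice 436 ± 89.4 (SD, both n = 16). Its log2 fold change was −0.25 ± 0.13 (SE, 95% interval from −0.51 to 0.01), −0.20 without its highest library, CTR 2, and −0.19 without CTR 7. Within groups Ntrk2 had r = −0.48 with the striatal markers in the NAc (rho = −0.47, r = −0.39 without the 2 farthest libraries; adjusted p = 0.0734 and 0.0863, permutation tests).

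Bdnf in the NAc had medians of 7.49 CPM in CTR and 1.54 in mCRS libraries, with ranges of 0 to 52.1 and 0 to 85.5. The means were 17.0 CPM ± 19.3 and 14.4 ± 24.2 (SD, n = 16 each), and 9.62 ± 15.5 (SD, n = 15) in mCRS mice without the highest library, mCRS 15. The log2 fold change was −0.24 ± 0.92 (SE), −0.82 without mCRS 15 and −0.03 without NAc CTR 7, the CTR library with the highest Bdnf level. Its 95% interval, from −2.09 to 1.60, spans more than a 2-fold change in either direction, so a change of that size is not excluded. The difference of mean log2 CPM was −1.04 (permutation test, p = 0.213), and −1.34 without mCRS 15. Endothelial markers (6 of 6 counted) came to 309 CPM ± 76.5 in CTR and 220 ± 81.0 in mCRS libraries of the NAc (SD, n = 16 each; ranges 169 to 474 and 74.3 to 378), and their part in the values of the 5 genes was not tested.

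Ntrk3 in the NAc ran from 97.3 to 436 CPM in CTR and from 70.5 to 473 in mCRS libraries, with medians of 236 and 208. Its log2 fold change was −0.07 ± 0.20 (SE), and −0.17 without mCRS 6. With group means removed, Ntrk3 had r = −0.51 with the share of genes detected in the NAc (rho = −0.49). Adjusted p was 0.0734 for r and 0.0737 for rho (permutation tests), and r was −0.39 without the 2 farthest libraries. A fit that also held that share gave Ntrk3 a log2 fold change of −0.15, and the part of the share was not tested further. Sort1 had medians of 184 and 149 CPM and a log2 fold change of −0.21 ± 0.22 (SE), and −0.15 without CTR 14. Vgf had medians of 265 and 252 CPM, ranges of 142 to 569 and 120 to 529, and a log2 fold change of 0.06 ± 0.18 (SE), which was 0.18 without CTR 2. The mean log2 difference of Vgf was −0.40 among libraries 1 to 8 and 0.50 among those from 9 upwards. The labels do not say what sets these numbers apart. The adjusted p was 0.99995 for all 5 genes in the NAc (edgeR).

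**Figure D5:**
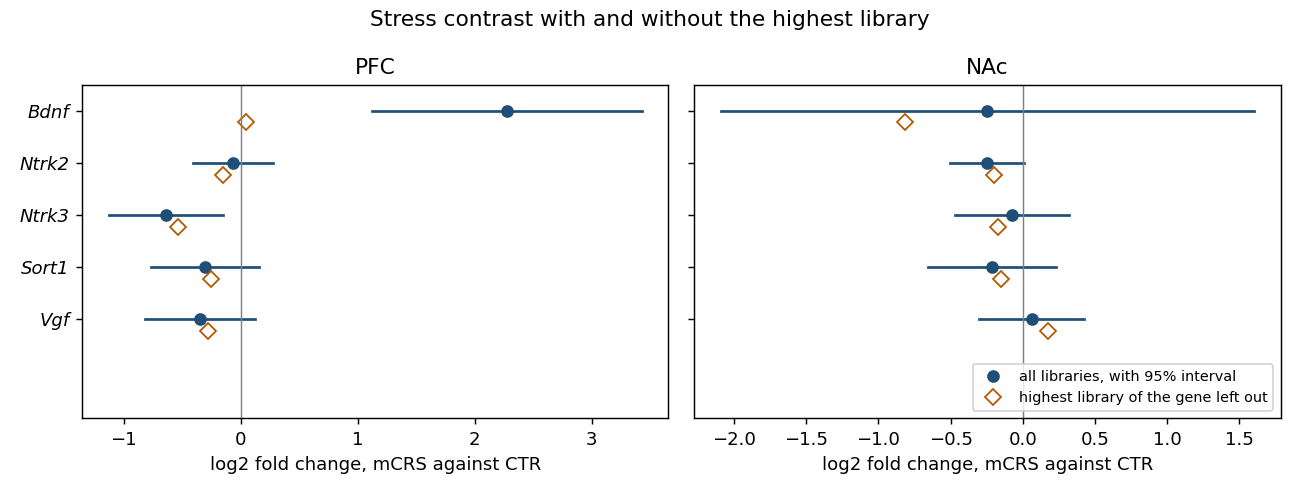
Log2 fold change of each gene between mCRS and CTR in the PFC and the NAc, with 95% intervals from edgeR (filled points), and the fitted value when the highest library of that gene is left out (open diamonds). Bdnf in the PFC moves from 2.28 to 0.05, and no other gene in the PFC moves by more than 0.10.

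The interaction of region and stress, fitted over all 62 libraries, asked whether the change with stress differed between the PFC and the NAc. Like the region contrasts, it treated libraries from the same mice as independent. It called 0 of the 5 members, against 0.00907% of the 11025 genes tested, and 1 member, Bdnf, had an unadjusted p below 0.05, against 3.09% of all genes, and 1.45% in the same direction (edgeR). DESeq2 called 0 members, against 0.00899% of 11121 genes. The interaction was 2.49 ± 0.93 (SE) for Bdnf with all libraries and 0.26 ± 0.91 (SE) without PFC mCRS 9. For Ntrk3 it was −0.58 ± 0.32 (SE), with an interval from −1.22 to 0.05. For Ntrk2, Sort1 and Vgf it was 0.18, −0.09 and −0.42, and the adjusted p was 0.99997 for each of the 5 genes.

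Relations between members were sought among libraries of a region with group means removed, and r ran from −0.46 to 0.42. A pair that did not pass the adjustment may still be related. Of 20 pairs, 10 in each region, 0 had an adjusted p below 0.05 and 2 an unadjusted p below 0.05. Ntrk3 and Sort1 had r = −0.46 and rho = −0.50 over 30 PFC libraries with group means removed (adjusted p = 0.164 and 0.134, permutation tests), and r = −0.40 without the 2 farthest libraries. Bdnf and Ntrk2 had r = 0.42 and rho = 0.44 over 32 NAc libraries (adjusted p = 0.164 and 0.134, permutation tests), and r = 0.36 without the 2 farthest. The farthest libraries were chosen by the gene named first in a pair. NAc CTR 7, at 52.1 CPM of Bdnf and 747 of Ntrk2, was not left out by name. The genes whose levels followed a member most closely are given as a description. They were sought over the 62 libraries with group means removed, among 10441 genes with a mean of at least 20 counts. For Bdnf they were Ltbp3, Brca2 and Pskh1, with r from 0.48 to 0.49. For Ntrk2 they were Rmnd1, Tssc4 and Hdac9, with r from 0.52 to 0.54. For Ntrk3 they were Lrrk2, Fam98b and Cit (0.44 to 0.45). For Sort1 they were Prrt1, Luc7l and Tmod1 (0.52 to 0.55), and for Vgf Lonrf1, Cmip and Trim46 (0.57 to 0.59).

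Other genes of the pathway were read from a list of 123 genes for ligands and receptors, processing and secretion, adaptors and kinases, transport, regulators of Bdnf and targets, of which 113 were counted. In the PFC, 103 of them were tested and 5 had an unadjusted p below 0.05 with stress, which is 4.85% against 3.5% of all genes, and 0 passed the adjustment (edgeR, and 0 genes of any kind did). Crk, an adaptor of receptor tyrosine kinases, had a log2 fold change of 0.70 ± 0.27 and Egr3, an immediate early transcription factor, of 0.71 ± 0.34 (SE). For Crebbp, a coactivator of CREB, it was −0.67 ± 0.30, for Egr1, another immediate early factor, −0.51 ± 0.24, and for Nedd4l, a ubiquitin ligase, −0.65 ± 0.32 (SE). The adjusted p of all 5 was 0.9997. Over the whole list 51 genes lay above and 52 below 0, and the median of −0.00 in log2 compares with −0.01 over all genes tested. In the NAc, 0 of 107 genes had an unadjusted p below 0.05, against 2.04% of all genes, with 52 above and 55 below 0.

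Between the regions more of the pathway list was called than with stress. In CTR mice 16 of the 113 genes were called at an adjusted p below 0.05, 14.2% against 5.44% of all genes, with 11 higher and 5 lower in the PFC (edgeR). Genes of processing and secretion made up 8 of these, out of 17 tested. Adora2a, also called, is among the striatal neuron markers as well. The share of the list was not set against genes with like counts, and no test of the list as a set was run. Pcsk2, a proprotein convertase of the regulated secretory pathway, was higher in the PFC by 1.02, Chgb, a granin of dense core vesicles, by 0.94, and Cpe, carboxypeptidase E, by 0.39, whereas the granin Scg2 was lower by −1.47. Mef2c, a transcription factor of the regulator list, was higher by 2.10 in log2 and Egr1 by 1.03. These names were picked with the values in view.

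Ngfr, the low-affinity neurotrophin receptor, had the opposite pattern to Bdnf. It was at 0 in 13 of 15 PFC CTR libraries and had a median of 17.5 CPM in NAc CTR libraries, and it was called lower in the PFC of CTR mice (edgeR). In the stress contrast 0 of the 5 ligand and receptor genes tested in the PFC and 0 of 7 in the NAc had an unadjusted p below 0.05, where 3.5% and 2.04% of all genes tested did (edgeR).

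The annotation limits what a count of Ntrk2 or Ntrk3 stands for. Ntrk2 (ENSMUSG00000055254, chromosome 13, 58806569 to 59133970, plus strand) has 7 coding transcripts with 6 different 3′ ends that spread over 255221 bases. Ntrk3 (ENSMUSG00000059146, chromosome 7, 78175959 to 78738012, minus strand) has 6 coding transcripts with 6 different 3′ ends over 401577 bases. Both genes are known to make full-length kinase receptors and truncated forms without a kinase, and the counts sum over them. Sort1 (ENSMUSG00000068747, chromosome 3, 108284082 to 108361511, plus strand) has 2 coding transcripts, and Vgf (ENSMUSG00000037428, chromosome 5, 137026392 to 137033351, plus strand) has 4. Bdnf, Ntrk2, Ntrk3 and Sort1 overlap other annotated genes, among them antisense ones, none of which is itself counted, and whether counting used strand is not given in the sources used here.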

How the data were processed

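BRB-seq counts of 62 mouse libraries were used, 30 from the PFC and 32 from the NAc, with 50 ng of total RNA per sample. The authors mapped reads with STAR to GRCm38 (mm10) and counted uniquely mapped reads per gene with htseq (HTSeq 0.9.1 in the submitters' processing notes). The deposited values are raw counts, whole numbers without normalization, for 11121 genes, 11120 of which were given a symbol by Ensembl ID. PCR copies were counted, so intervals and floors based on counts cover counting error only. Labels do not tie a PFC library to a NAc library of the same mouse, and all 62 libraries were treated as independent samples.

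Members, lists and tests were chosen with earlier results of these data known. Named genes are the members, pathway genes at an unadjusted p below 0.05 in a stress contrast, and the 3 genes closest to each member. Closeness was r of log2 CPM with group means removed. Phykpl, Arc, Ngfr, Pcsk2, Chgb, Cpe, Scg2, Mef2c and Adora2a lie outside this rule and were chosen with values in view, as was Egr1 between regions.

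Each region was fitted on all genes with edgeR 4.0.16 (R 4.3.3), using TMM, the default filter on low counts and the quasi-likelihood test, and p-values were adjusted over all genes tested. The standard error is the log2 fold change divided by the root of the F statistic. The interaction and the region contrasts came from 1 fit of 4 groups. Log2 CPM used a prior count of 2. Permutation tests were two-sided with 100000 resamples. Those of a difference between mCRS and CTR shuffled libraries between the groups, and those of a relation shuffled them within groups. The fit was also run on simulated counts with known changes. No single outlying library like PFC mCRS 9 was set into them, so they do not bear on the Bdnf value there. Alternatives were DESeq2 1.42.0, other normalizations and filters, covariates, a surrogate variable (sva 3.50.0), a replicate block and each library left out. A robust spread and the fits without PFC mCRS 9 for all contrasts were added after seeing the data, as were the relations to markers and the numbering with PFC mCRS 8 moved. Gene positions and transcript ends are from GENCODE on GRCm38, promoter windows from RefSeq.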

Additional observations from a re-analysis of the deposited data

How the results depend on the processing

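The number of members called was 0 for stress in the PFC, 0 for stress in the NAc, 0 for the interaction and 1, Bdnf, between regions in CTR mice under every alternative run, and leaving out 1 library gave 0 to 0, 0 to 0, 0 to 0 and 1 to 1. Of 240 member values under other alternatives 235 kept direction and side of the threshold, as did 926 of 930 with 1 library left out. Few members passed a threshold to begin with, so this tally mostly counts signs and does not measure how far a value moved. The fall of Bdnf in the PFC without mCRS 9 counts as kept. Bdnf in the PFC depended on PFC mCRS 9 and on the tool, with a log2 fold change of 0.05 without that library and 0.04 in DESeq2, whose default replaces outlying counts, against 1.51 with the numbering split and 1.71 with log2 library total as a covariate. The difference of its mean log2 CPM was 0.54 (permutation test, p = 0.390), and 0.13 without the highest library. With an estimate of the spread robust to outlying genes the adjusted p of Bdnf was 0.9997 for stress and 0.0482 between regions.

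The sign changed for Ntrk2 in the PFC, to 0.048 with the share of genes detected and 0.028 with 1 surrogate variable as a covariate, and for Ntrk3 between regions, to −0.41 with mCRS in place of CTR libraries. With 1 library left out the log2 fold change ran from −0.17 to 0.0051 for Ntrk3 in the NAc, from −0.012 to 0.18 for Vgf in the NAc (−0.0018 without NAc mCRS 15) and from −0.15 to 0.019 for Vgf between regions, the last without NAc CTR 2. Ntrk2 in the NAc, with a mean log2 difference of −0.23, had p = 0.0448 in a permutation test, and Ntrk3 in the PFC, with −0.82, had p = 0.00380, both given as a description. The cause of these changes was not tested. The pathway list had 5 genes at an unadjusted p below 0.05 in the PFC, 3 with 1 surrogate variable and 1 to 5 with 1 library left out (1 without PFC CTR 12). In the NAc it had 0, 1 with log2 library total, 2 with the share of genes detected, and 0 to 1 with 1 library left out.

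Same-numbered libraries of PFC CTR and mCRS mice did not deviate together, with r from −0.03 to 0.05 and 0 of 15 pairs over 0.1, and 0 of 16 in the NAc, so the numbers were not taken as pairs. With the replicate block the members called stayed at 0, 0, 0 and 1, the pathway counts were 4 in the PFC and 0 in the NAc, and Bdnf had a log2 fold change of 0.43 in the PFC, −2.46 in the NAc and 3.18 between regions.

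Bdnf counts were low in the NAc, where 13 of 32 libraries held under 5 counts.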
